A study of Arabidopsis thaliana with 20 samples.

Results

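The 7 genes described here, GSO1, JKD, AT2G39430, AT3G22620, AT5G66390, AT1G68850 and AT2G35380, were grouped as candidate genes of endodermal identity and of the endodermal cell wall barrier in the Arabidopsis thaliana root. That name rests on the choice and not on these data, in which JKD and AT2G35380 had their highest air means in the line pWOL, labelled vascular. The genes were chosen by name for their higher signal in the polysomal RNA of the pSCR line and for their change in hypoxia, so the values below that bear on either are given as descriptions with no test. Each is measured by 1 probe set, and they make up 7 of the 13513 probe sets with a single named gene, among 22746 probe sets that are not array controls.

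The endodermis is the innermost ground tissue layer of the root. Its cells seal the space between them with the Casparian strip, a band of lignin in the wall, and later coat their walls with suberin, so that water and solutes must pass through a cell before they reach the vascular tissue. GSO1 is a receptor kinase of the endodermal membrane that perceives peptides from the stele and is needed for an unbroken Casparian strip. JKD (JACKDAW) is a zinc finger transcription factor that acts with SCARECROW and SHORT-ROOT in the ground tissue. AT2G39430 is annotated as a dirigent protein, a class that guides the coupling of lignin precursors, and AT3G22620 as a lipid transfer protein, a class that includes carriers of suberin and cutin lipids. AT5G66390 (PRX72), AT1G68850 and AT2G35380 are class III peroxidases, a family whose wall members oxidise lignin precursors.

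The data are 20 Affymetrix arrays in 10 groups of 2: 5 RNA populations, each from seedlings held in air (control) or in argon (hypoxia) for 2 h. All plants were seedlings 7 days old of the Col-0 background, and root tips of 1 cm were harvested. In 4 transgenic lines a tagged ribosomal protein, His6-FLAG-RPL18B, was driven by the SCR promoter (pSCR, assigned to the endodermis in the labels), the SHR promoter or the WOL promoter (pSHR and pWOL, both assigned to the vascular tissue), or the broadly active p35S, and RNA on tagged ribosomes was immunopurified. The fifth population is total RNA from the lysates that gave the p35S polysomes, so air and hypoxia groups alike, total RNA included, carry a tagged ribosomal protein. Each line reports on cells with an active promoter, and fewer such cells cannot be told apart from less RNA on tagged ribosomes per cell.

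Values are log2 expression as deposited, and differences are given as log2 units ± the standard error of a limma model of the 10 group means. The array medians lay between 6.41 and 6.55, and the correlation between the 2 arrays of a group lay between 0.965 and 0.984 over all probe sets. The pSCR hypoxia replicate 2 array stood apart in 1 respect: its 25S ribosomal RNA control read 10.18, against 12.69 to 14.34 on the other 19 arrays. SCR, MYB36, the CASP genes, ESB1 and PER64, the defining endodermal markers, were not analysed here by name, so the label of the pSCR line was checked only against other barrier genes, described below. A marker counts here as measured only where the annotation names a probe set for that gene alone. Of 15 vascular marker genes 3 were measured (PHV, LHW and OPS). Their mean log2 signal in air was 7.28 to 7.64 on the pSCR arrays, 7.81 to 7.87 in pSHR, 7.40 to 7.42 in pWOL and 8.07 to 8.29 in p35S. By this mean the arrays of the lines labelled vascular did not all stand above pSCR. Gene by gene, the air means in pSCR, pSHR and pWOL were 9.05, 9.80 and 9.39 for PHV and 7.55, 7.97 and 7.37 for LHW. For OPS, the dimmest, they were 5.78 (SD 0.78), 5.76 and 5.47. The 2 measured of 7 epidermis and root hair markers, EXPA7 and EXPA18, averaged 8.06 to 8.68 in pSCR in air, 8.24 to 9.33 in pSHR, 8.51 to 8.70 in pWOL, 7.22 to 7.67 in p35S and 9.86 to 9.92 in total RNA. The 2 cortex markers, CO2 and AT1G09750, averaged 7.16 to 7.18 in pSCR in air, 7.29 on both pSHR arrays, 7.59 to 7.95 in pWOL and 5.98 to 6.23 in p35S. AGL42, the 1 measured marker of the quiescent centre, read 6.42 to 7.13 in pSCR in air, 6.43 to 6.75 in pWOL, 5.44 to 6.19 in pSHR and 4.75 to 5.24 in p35S, so pSCR and pWOL overlapped. None of 3 root cap markers was measured in this sense. The part of other cell types in the results was not tested.

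In air, the dirigent gene AT2G39430, the lipid transfer gene AT3G22620 and the peroxidases AT5G66390 and AT1G68850 had their highest signals of the experiment on the pSCR arrays. GSO1 shared that order at a lower difference, whereas JKD and the peroxidase AT2G35380 were highest in pWOL. In hypoxia all 7 genes were lower in pSCR than in air, and the difference from the other lines was smaller for 6 of the 7.

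Of the 2 regulators, GSO1 read 11.38 and 10.82 in pSCR in air, against 8.53 and 9.03 in p35S, 10.00 and 9.31 in pSHR, 9.23 and 9.17 in pWOL, and 9.74 and 9.89 in total RNA. Both pSCR arrays lay above all others. In hypoxia GSO1 read 9.26 and 10.20 in pSCR, 8.54 and 8.40 in p35S, 9.38 and 9.92 in pSHR, 9.36 and 9.87 in pWOL, and 8.90 and 8.80 in total RNA. The pSCR, pSHR and pWOL arrays then overlapped, with p35S and total RNA below them. The pSCR difference from the mean of the other 3 lines was 1.89 ± 0.27 in air, a fold of 3.71, and 0.49 ± 0.27 in hypoxia, a fold of 1.40.

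JKD was the gene for which the pSCR line differed least from the other lines. In air JKD read 9.08 and 8.52 in pSCR, 7.80 and 9.09 in pSHR, 9.11 and 9.86 in pWOL, 7.09 and 6.69 in p35S, and 7.23 and 7.43 in total RNA. In hypoxia its values were 7.48 and 8.19 in pSCR, 7.84 and 7.24 in pSHR, 7.99 and 9.36 in pWOL, 6.71 and 6.45 in p35S, and 7.19 and 7.14 in total RNA. In both conditions pSCR overlapped pSHR and stood above p35S and total RNA. Against the mean of the other lines the JKD difference was 0.53 ± 0.38 in air and 0.24 ± 0.38 in hypoxia. Against pWOL alone it was -0.68 in air and -0.84 in hypoxia, so pWOL and not pSCR held its highest mean.

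**Figure D1:**
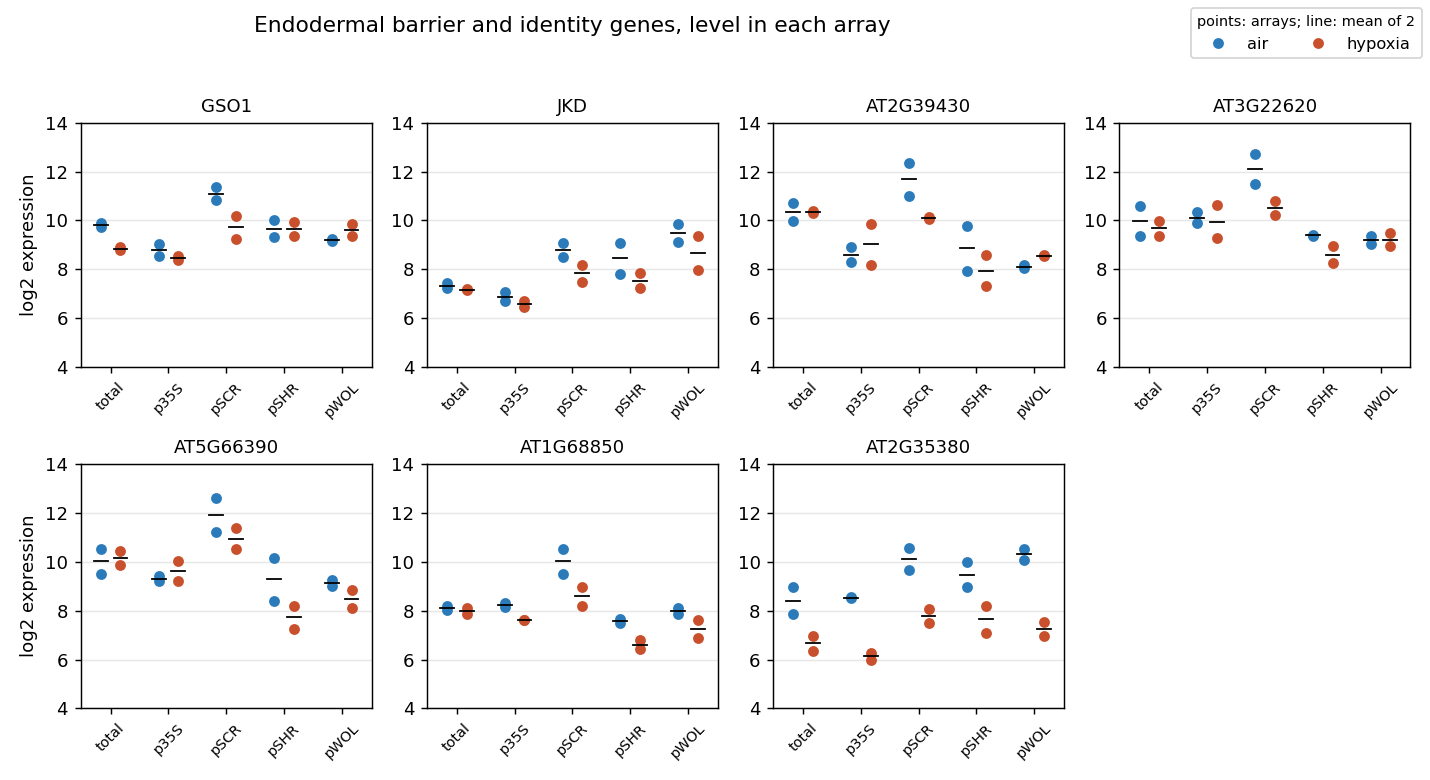
Log2 signal of the 7 genes on each of the 20 arrays, by RNA population and treatment, with 1 point per array and a line at each mean of 2 arrays. In air both pSCR arrays lie above the arrays of the other lines for 5 genes, while JKD and AT2G35380 reach their highest air means in pWOL.

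Among the barrier enzymes and wall proteins, the dirigent gene AT2G39430 ranked first of 22746 probe sets by its pSCR difference in air. It read 12.33 and 11.02 in pSCR in air, against 8.29 and 8.90 in p35S, 9.79 and 7.94 in pSHR, 8.05 and 8.18 in pWOL, and 10.70 and 9.96 in total RNA. In hypoxia it read 10.07 and 10.13 in pSCR, 9.86 and 8.18 in p35S, 8.60 and 7.30 in pSHR, 8.58 and 8.53 in pWOL, and 10.40 and 10.30 in total RNA. Total RNA was then above pSCR, and pSCR remained above the 3 other lines. The difference from those lines was 3.15 ± 0.52 in air, a fold of 8.86, and 1.59 ± 0.52 in hypoxia, a fold of 3.01.

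The lipid transfer gene AT3G22620 read 12.70 and 11.51 in pSCR in air, 9.88 and 10.35 in p35S, 9.37 and 9.42 in pSHR, 9.38 and 9.05 in pWOL, and 10.58 and 9.38 in total RNA. Its hypoxia values were 10.23 and 10.80 in pSCR, 10.63 and 9.28 in p35S, 8.96 and 8.25 in pSHR, 8.94 and 9.49 in pWOL, and 9.98 and 9.37 in total RNA. The pSCR arrays stood clear of all others in air, and in hypoxia 1 p35S array reached between them. The difference from the other lines was 2.53 ± 0.42 in air, a fold of 5.77, and 1.26 ± 0.42 in hypoxia, a fold of 2.39.

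The 3 peroxidases did not share 1 pattern. AT5G66390 read 12.62 and 11.20 in pSCR in air, 9.20 and 9.42 in p35S, 10.16 and 8.39 in pSHR, 9.25 and 9.01 in pWOL, and 10.52 and 9.50 in total RNA. In hypoxia it read 10.51 and 11.36 in pSCR, 10.01 and 9.20 in p35S, 8.19 and 7.25 in pSHR, 8.11 and 8.83 in pWOL, and 9.87 and 10.45 in total RNA. Both pSCR arrays lay above every other array in each condition. Its difference from the other lines was 2.67 ± 0.49 in air and 2.34 ± 0.49 in hypoxia, where it ranked first of the 22746 probe sets.

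AT1G68850 had lower signals, again with pSCR highest; pSHR was below pWOL in both conditions, whereas for AT5G66390 it was so only in hypoxia. It read 10.53 and 9.49 in pSCR in air, 8.33 and 8.13 in p35S, 7.48 and 7.64 in pSHR, 8.11 and 7.86 in pWOL, and 8.03 and 8.18 in total RNA. The hypoxia values were 8.19 and 8.98 in pSCR, 7.60 and 7.62 in p35S, 6.79 and 6.43 in pSHR, 6.89 and 7.62 in pWOL, and 7.88 and 8.11 in total RNA. The pSCR arrays were the highest in both conditions, and pSHR held the lowest. Its difference from the other lines was 2.08 ± 0.27 in air and 1.43 ± 0.27 in hypoxia.

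AT2G35380 departed from the other peroxidases. In air it read 10.58 and 9.67 in pSCR, 8.97 and 9.98 in pSHR, 10.05 and 10.54 in pWOL, 8.51 and 8.56 in p35S, and 8.95 and 7.86 in total RNA. In hypoxia it read 7.50 and 8.08 in pSCR, 7.09 and 8.20 in pSHR, 6.97 and 7.53 in pWOL, 6.26 and 5.99 in p35S, and 6.98 and 6.35 in total RNA. In both conditions pSCR overlapped pSHR and pWOL, and p35S was below these 3 lines. The pSCR difference from the other lines was 0.69 ± 0.39 in air and 0.78 ± 0.39 in hypoxia.

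Over the 7 genes the median pSCR difference from the other lines was 2.08 in air (-0.01 over all probe sets) and 1.26 in hypoxia (0.00 over all probe sets). Both pSCR arrays lay above all 6 arrays of the other lines for 5 of 7 genes in air, where 7.28% of all probe sets did so. In hypoxia they did so for 3 of 7 genes, AT2G39430, AT5G66390 and AT1G68850, against 3.87% of all probe sets. The rule chose the genes for this contrast, so nothing is read from these shares.

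**Figure D2:**
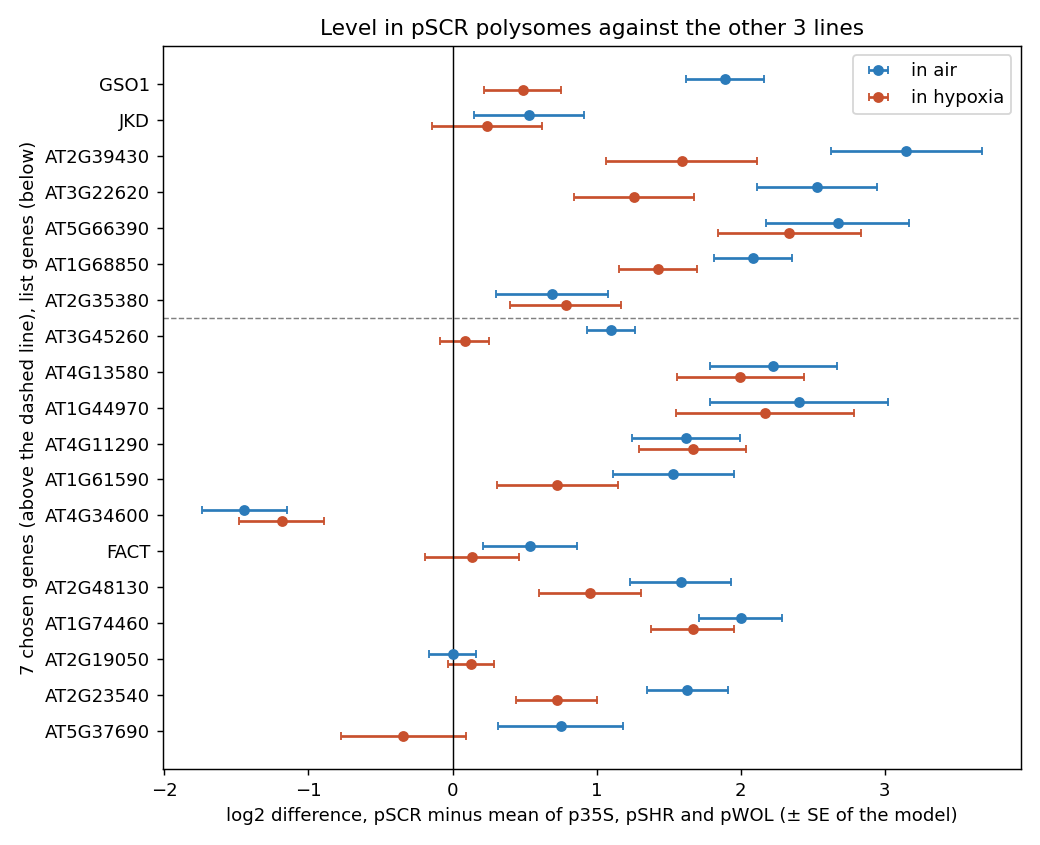
Log2 difference of pSCR from the mean of p35S, pSHR and pWOL in air and in hypoxia, with bars of 1 standard error of the model, for the 7 genes above the dashed line and, below it, the 12 list genes described further on. AT5G66390 has a similar difference in both conditions (2.67 and 2.34), GSO1 a much smaller one in hypoxia (1.89 and 0.49), and JKD and AT2G35380 lie below 1 in both.

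Taken line by line, the pSCR signal in air exceeded p35S by 1.59 (AT2G35380) to 3.08 (AT2G39430), with no overlap of arrays for 7 of 7 genes where 25.8% of all probe sets showed this. Against pSHR the differences ran from 0.36 (JKD) to 2.81 (AT2G39430), with no overlap for 5 of 7 genes and 21.9% of all probe sets. Against pWOL they ran from -0.68 (JKD) to 3.56 (AT2G39430). There 5 genes were higher in pSCR without overlap, beside 25.5% of all probe sets, and JKD was lower, beside 26.6%. In hypoxia 6 of 7 genes stood above p35S without overlap (23.3% of all probe sets), 4 of 7 above pSHR (18%) and 4 of 7 above pWOL (21.1%). The largest hypoxia difference from pSHR was that of AT5G66390 at 3.21, and GSO1 and AT2G35380 differed from pSHR by only 0.08 and 0.15. The 3 comparisons share the pSCR arrays and are not independent of each other.

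In hypoxia the signal of all 7 genes was lower in pSCR than in air. The differences were -1.37 ± 0.33 for GSO1, -0.97 ± 0.47 for JKD, -1.57 ± 0.64 for AT2G39430, -1.59 ± 0.51 for AT3G22620, -0.97 ± 0.61 for AT5G66390, -1.42 ± 0.33 for AT1G68850 and -2.34 ± 0.47 for AT2G35380. For 6 of 7 genes, all but AT5G66390, both hypoxia arrays lay below both air arrays, as did 25.1% of all probe sets. The pSCR control arrays used here are those of the air comparison above. Among markers of other cell types in pSCR, EXPA7 averaged 8.37 in air and 5.78 in hypoxia, and EXPA18 averaged 8.38 and 7.29. Both were also lower in hypoxia in every other population, as in total RNA, with 9.29 and 7.15 for EXPA7 and 10.49 and 8.24 for EXPA18. The cortex marker AT1G09750 differed in pSCR by -0.92 from its air mean of 9.42. The cortex marker CO2 (AT1G62500) went the other way, from 4.92 to 5.42, with low signals on all arrays (4.66 to 5.59). As lists, the epidermis markers went from 8.06 to 8.68 in air to 6.17 to 6.91 in hypoxia on the pSCR arrays, the cortex markers from 7.16 to 7.18 to 6.94 to 6.98, and the vascular markers from 7.28 to 7.64 to 7.02 to 7.41, the last with overlap. The GAPDH control, whose 3' minus 5' signal measures how far the amplified RNA was shortened, read 3.95 and 4.14 in pSCR in air and 4.27 and 5.11 in hypoxia. The part of these shifts in the differences of the 7 genes was not tested.

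In the other populations the differences were not all in that direction. In pSHR the hypoxia differences ran from -0.01 (GSO1) to -1.83 (AT2G35380), with 4 of 7 genes lower without overlap against 23.2% of all probe sets. In pWOL they ran from -3.05 (AT2G35380) to 0.44 (AT2G39430), with 3 genes lower (27% of all probe sets) and 2 higher (26.1%) without overlap. The 2 that were higher there were GSO1, by 0.42, and AT2G39430. In p35S 2 of 7 genes (24.1% of all probe sets), and in total RNA 3 of 7 (23.3%), were lower without overlap. The median of the 7 differences was -1.42 in pSCR, -0.91 in pSHR, -0.66 in pWOL, -0.31 in p35S and -0.17 in total RNA.

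AT2G35380 had the largest hypoxia difference of the 7 in each of the 5 populations: -1.74 ± 0.47 in total RNA, -2.41 ± 0.47 in p35S, -2.34 ± 0.47 in pSCR, -1.83 ± 0.47 in pSHR and -3.05 ± 0.47 in pWOL. Its mean over the 4 lines was -2.41, a fold of 5.30. It was the 1 gene of the 7 whose 8 hypoxia arrays of the lines all lay below the 8 air arrays, which 0.791% of all probe sets showed. The difference between its change in pSCR and the mean change in the other 3 lines was 0.09 ± 0.55.

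For the remaining genes the pSCR change was lower than the mean change of the other 3 lines, by -1.40 ± 0.38 for GSO1, -1.56 ± 0.74 for AT2G39430, -1.27 ± 0.59 for AT3G22620 and -0.66 ± 0.38 for AT1G68850. The values were -0.29 ± 0.54 for JKD and -0.33 ± 0.70 for AT5G66390, within their standard errors.

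**Figure D3:**
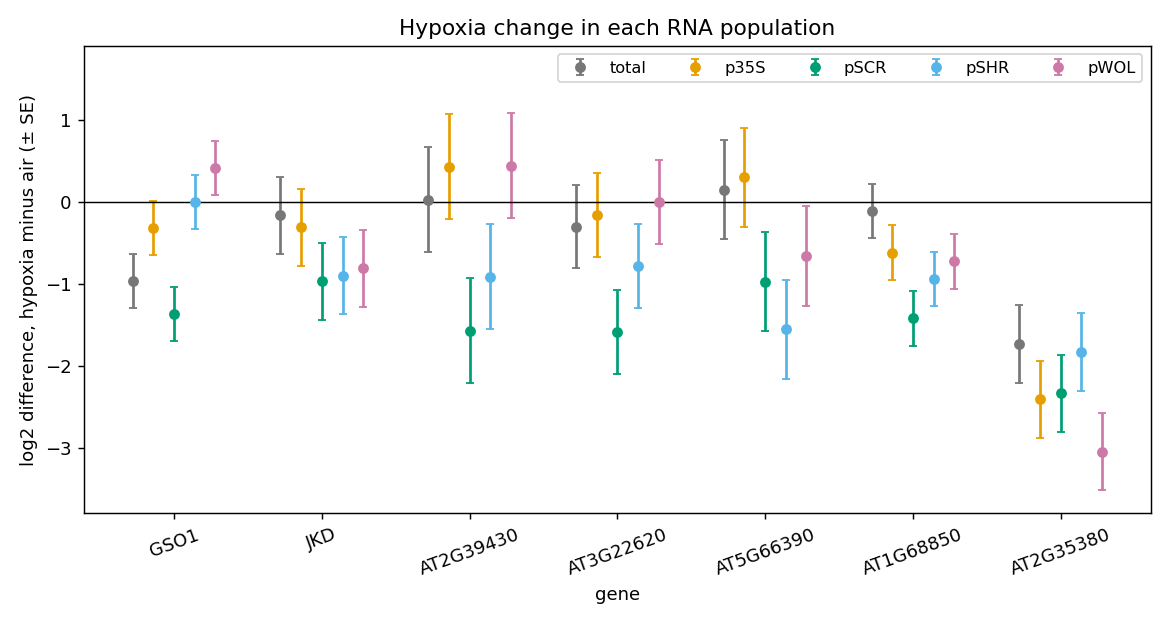
Log2 difference of hypoxia from air for the 7 genes in each of the 5 RNA populations, with bars of 1 standard error of the model. AT2G35380 lies between -3.05 and -1.74 in all populations, whereas GSO1 and AT2G39430 lie below 0 in pSCR and above 0 in pWOL.

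The 2 pSCR arrays of a condition differed from each other in 1 direction for all 7 genes. In air replicate 1 was higher than replicate 2 by 0.56 to 1.42 for 7 of 7 genes, and in hypoxia replicate 1 differed from replicate 2 by -0.94 to -0.06. Of all probe sets 49.1% were higher in replicate 1 in air and 46.5% in hypoxia. Without pSCR control replicate 1, the air difference from the other lines was 1.61 for GSO1, 0.25 for JKD, 2.49 for AT2G39430, 1.93 for AT3G22620, 1.96 for AT5G66390, 1.57 for AT1G68850 and 0.23 for AT2G35380. The hypoxia change in pSCR was then -1.09, -0.69, -0.91, -0.99, -0.27, -0.91 and -1.88 in the same order of genes. Without pSCR hypoxia replicate 2, the array with the low 25S control, the hypoxia difference from the other lines was 0.02 for GSO1, -0.12 for JKD, 1.56 for AT2G39430, 0.97 for AT3G22620, 1.91 for AT5G66390, 1.03 for AT1G68850 and 0.50 for AT2G35380. The hypoxia change in pSCR was then between -2.62 (AT2G35380) and -1.32 (JKD). Without pSCR hypoxia replicate 1 the change was smaller for all 7 genes: -0.90 for GSO1, -0.61 for JKD, -1.54 for AT2G39430, -1.30 for AT3G22620, -0.55 for AT5G66390, -1.02 for AT1G68850 and -2.05 for AT2G35380. The hypoxia difference from the other lines was then larger, at 0.96 for GSO1, 0.59 for JKD, 1.62 for AT2G39430, 1.55 for AT3G22620, 2.76 for AT5G66390, 1.83 for AT1G68850 and 1.07 for AT2G35380.

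The lines pSHR and pWOL, both labelled vascular, were not compared with each other in the choice of genes, and this comparison was tested. The choice did use the arrays of both lines, as part of the other lines set against pSCR. The test is therefore not independent of the choice. None of the 7 genes passed in air or in hypoxia (limma, Benjamini-Hochberg adjusted p below 0.05 over all probe sets), where 1.97% and 0.00879% of all probe sets did. At an unadjusted p below 0.05, where the share of all probe sets was not computed, the count was 1 of 7 in each, JKD both times. JKD was lower in pSHR than in pWOL by -1.04 in air (limma adjusted p = 0.273) and -1.13 in hypoxia (limma adjusted p = 0.755). For AT2G35380 the air difference was -0.82 with a limma adjusted p of 0.417, and for AT2G39430 it was 0.75 with 0.630. With 2 arrays a group, simulated differences of 1 log2 unit were recovered for 47 of 100 randomly drawn probe sets in this comparison in air. Differences of that size could thus be missed, and the rate for the 7 genes themselves was not simulated.

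Polysomal p35S RNA and total RNA came from the same lysates. In air GSO1 was lower on the p35S ribosomes than in total RNA by -1.03 ± 0.33 and AT2G39430 by -1.73 ± 0.64, while AT3G22620, AT1G68850 and AT2G35380 each differed by 0.13. In hypoxia AT2G39430 differed by -1.33 ± 0.64 and AT3G22620 by 0.28 ± 0.51. Without overlap of arrays, 4 of 7 genes were lower in p35S in air (25% of all probe sets) and 5 of 7 in hypoxia (22.5%). The 3' minus 5' signal of the GAPDH control was 3.68 ± 0.39 in p35S and 4.55 ± 0.29 in total RNA (log2, SD, n = 4), and its part in these differences was not tested.

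Over the 10 group means 4 of the wall genes, AT2G39430, AT3G22620, AT5G66390 and AT1G68850, correlated with each other at r = 0.82 to 0.95. GSO1 correlated with them and the other genes less closely, at 0.46 to 0.57. JKD correlated with these 4 genes at -0.04 to 0.22, and with AT2G35380 at 0.73. The peroxidase AT2G35380 correlated with the same 4 genes only at 0.10 (AT2G39430) to 0.48 (AT1G68850). These values describe 10 group means that share arrays, labelling and scaling, and carry no test. The genes were chosen for their pSCR signal and hypoxia change, which favours shared profiles, so nothing is read from the correlations.

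A list of 60 further genes of endodermal identity, Casparian strip and suberin was set against the same comparisons, and 12 of them had a probe set named for that gene alone: 1 of 11 for identity, 5 of 24 for the Casparian strip and 6 of 25 for suberin. They are named here by locus code except FACT. These 12 were not among the chosen genes and were tested, although the list was drawn up with earlier results of these data known. In air 8 of 12 were higher in pSCR than in the other 3 lines and 1 was lower (limma adjusted p below 0.05), against 3.28% and 4.11% of all probe sets. The median difference of the 12 was 1.56, against -0.01 over all probe sets.

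In the suberin group AT1G74460 read 13.00 and 12.15 in pSCR in air, 10.96 and 11.13 in p35S, 10.61 and 9.91 in pSHR, and 10.64 and 10.18 in pWOL, a difference of 2.00 ± 0.29 (limma adjusted p = 0.00182). Both pSCR arrays lay above the 6 others. AT2G23540 was higher by 1.63 ± 0.28 (limma adjusted p = 0.00452) and AT2G48130 by 1.58 ± 0.35 (limma adjusted p = 0.0168). FACT, which encodes a fatty alcohol caffeoyl transferase of suberin-associated waxes, differed by 0.54, AT5G37690 by 0.75 and AT2G19050 by -0.00, and these 3 did not pass.

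In the Casparian strip group AT4G13580 was higher in pSCR by 2.23 ± 0.44 (limma adjusted p = 0.00942), AT1G44970 by 2.41 ± 0.62 (0.0328), AT4G11290 by 1.62 ± 0.37 and AT1G61590 by 1.53 ± 0.42 (0.0436). The list groups genes by their role in the barrier, and the cells that express each were not checked here. AT4G34600 was lower in pSCR. It read 7.46 and 6.66 in pSCR in air, below 9.41 and 8.52 in p35S, 7.89 and 7.91 in pSHR and 8.82 and 8.51 in pWOL, a difference of -1.45 ± 0.29 (limma adjusted p = 0.0107). The identity gene AT3G45260 had low signals throughout, with 5.85 and 5.52 in pSCR in air and 4.29 to 4.79 in the other lines, and was higher in pSCR by 1.10 ± 0.17 (limma adjusted p = 0.00241).

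All 12 list genes, like the 7 chosen ones, were higher on pSCR control replicate 1 than on replicate 2. Without pSCR control replicate 1 the count of list genes passing in air fell from 9 to 1, AT4G34600 at -1.85 (limma adjusted p = 0.0370). The 8 others were still higher, by 0.93 (AT3G45260) to 1.89 (AT4G13580), and none passed. AT4G34600 in turn did not pass without pSCR control replicate 2 (limma adjusted p = 0.148). AT1G61590 missed the threshold in 13 of the 20 fits that each left out 1 array, and AT1G44970 in 5 of them. Where a pSCR control array was left out, a single pSCR air array stood for its group, and was assumed to vary like the arrays of the other groups. Calls over all probe sets also fell on leaving out either pSCR control array, so the loss of calls was not particular to the list.

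In hypoxia 1 of 12 list genes was higher in pSCR than in the other lines, AT1G74460 by 1.67 ± 0.29 (limma adjusted p = 0.0310), against 0.0967% of all probe sets, and none was lower, against 0.431%. It read 10.87 and 11.11 in pSCR, 10.66 and 9.68 in p35S, 8.79 and 8.58 in pSHR, and 8.81 and 9.43 in pWOL. At an unadjusted p below 0.05 in either direction the count was 7 of 12, and the share of all probe sets at that threshold was not computed. The differences of AT1G44970 (2.17), AT4G13580 (2.00) and AT4G11290 (1.67) did not pass after adjustment, with limma adjusted p-values of 0.161, 0.0685 and 0.0707. On leaving out 1 array, adjusted calls over all probe sets moved in the same direction wherever the count of list genes moved. The count was 0 without pSCR hypoxia replicate 2, pSHR hypoxia replicate 2 or pWOL hypoxia replicate 1, and 3 without pSHR hypoxia replicate 1. Without pSCR hypoxia replicate 1 the count was still 1, but AT1G74460 no longer passed (limma adjusted p = 0.0804) and AT4G13580 did (limma adjusted p = 0.0303).

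Between air and hypoxia in pSCR, 3 of 12 list genes fell and none rose, against 2.51% and 3.45% of all probe sets. AT1G74460 fell by 1.58 ± 0.35 (limma adjusted p = 0.0185), AT2G23540 by 1.51 ± 0.35 (0.0207) and AT3G45260 by 0.99 ± 0.21 (0.0129). AT5G37690 had the largest difference, -1.90 ± 0.53, and did not pass (limma adjusted p = 0.0542). With the share of all probe sets not computed, the count at an unadjusted p below 0.05 in either direction was 6 of 12. It was 0 after adjustment without pSCR control replicate 1, or without either of the pSCR hypoxia arrays. Calls over all probe sets also fell in those fits. Whether the change in pSCR differed from the mean change in the other 3 lines was tested as an interaction. With limma, 0 of 12 list genes passed, beside 0.0044% of all probe sets. At an unadjusted p below 0.05 in either direction 2 of 12 did, with the share of all probe sets not computed.

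**Figure D4:**
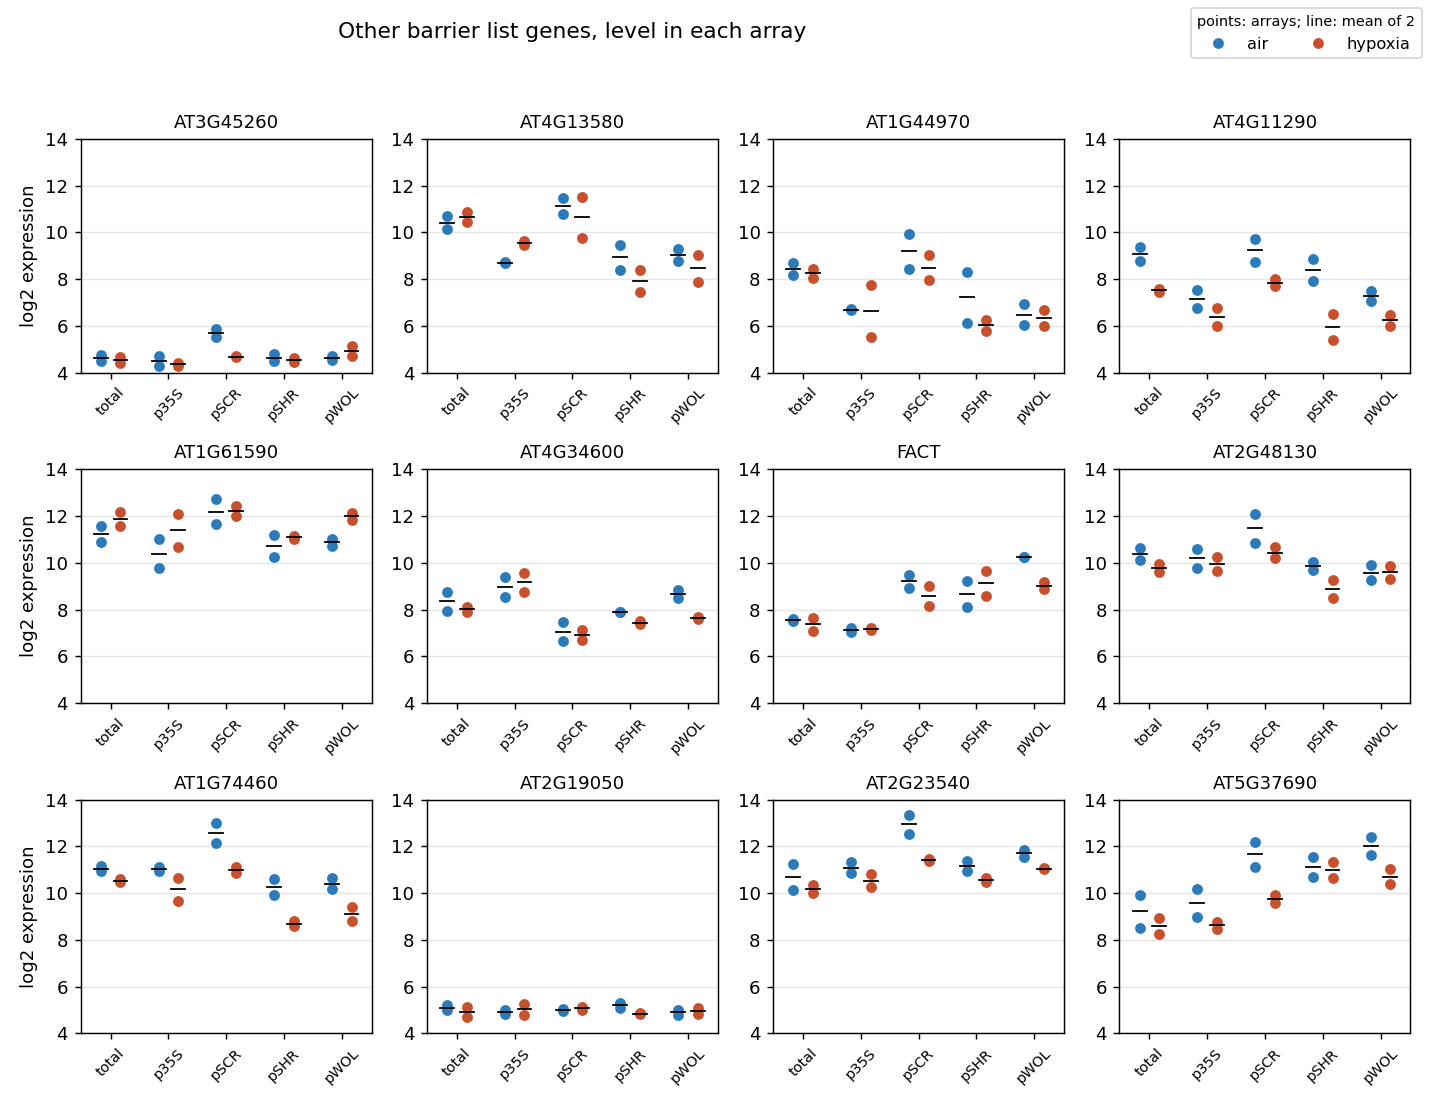
Log2 signal of the 12 measured genes of the identity, Casparian strip and suberin list on each of the 20 arrays, by RNA population and treatment, with a line at each mean of 2 arrays. In air 8 of the 12 are higher in pSCR than in the other lines, and AT4G34600 is lower.

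The single-gene probe sets most like the mean profile of the 7 genes over the 10 group means were AT3G21670 (r = 0.966), AT1G43020 (0.955), AT2G17650 (0.946), AT2G18360 (0.937), AT5G51680 (0.937), AT5G14130 (0.936), B70 (0.930) and AT2G44230 (0.926). Gene by gene, the closest profile to AT2G39430 was that of AT1G44970 (r = 0.967), and the closest to AT3G22620 was that of AT2G48130 (0.974). Both are genes of the barrier list. The closest to GSO1 was AT1G29630 (0.955), to JKD XIE (0.960), to AT5G66390 AT4G38690 (0.973), to AT1G68850 AT4G26790 (0.965) and to AT2G35380 AT4G35030 (0.963). These correlations rest on 10 group means each and were picked as the highest among all single-gene probe sets, so they carry no test.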

How the data were processed

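Each deposited value is a log2 expression signal of 1 probe set. The authors obtained it by RMA with affy, per the submitters' processing notes, with versions not given in the sources used here. RMA draws small values towards a floor, and 2 rounds of amplification from 400 pg of RNA, per the labels' protocols, can shift transcripts unevenly. The number of arrays limits the precision. Genes were named through the platform annotation and the TAIR10.1 gene table; 13513 of 22746 probe sets had 1 gene. Coordinates and sequences are not used here, since the sources name no genome build.

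A limma model (version 3.58.1, R 4.3.3) with 1 mean for each of the 10 groups used all 20 arrays, with Benjamini-Hochberg adjustment over the 22746 probe sets and calls at an adjusted p below 0.05. The labels do not say that replicates came from separate cultures, and their spread, on which the p-values rest, may be technical. The genes and lists were chosen with earlier results of these data known. The text names all 7 genes, every measured gene of the barrier list, the 8 probe sets most like the mean profile and the 1 most like each gene. On simulated data the model recovered 48 of 100 differences of 1 log2 unit and 97 of 100 of 2 for pSCR against the other lines in air, over 22746 probe sets. Groups share replicate numbers, but deviations of same-numbered arrays from their group means correlated at -0.331 to 0.291 between groups, so the numbers were not taken as pairs. Alternatives were another scaling, a filter on dim probe sets, other variance models, fewer arrays and replicate or lysate blocks.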

Additional observations from a re-analysis of the deposited data

Results flagged for a closer look

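GSO1 and AT2G39430 had hypoxia differences of opposite sign in different populations, with the 2 hypoxia arrays entirely below or entirely above the 2 air arrays in each case. The GSO1 hypoxia difference was -0.97 in total RNA and -1.37 in pSCR, but 0.42 in pWOL. The AT2G39430 hypoxia difference was -1.57 in pSCR and 0.44 in pWOL. Of all probe sets 23.3% were lower without overlap in total RNA, 25.1% were lower in pSCR and 26.1% were higher in pWOL. The share with opposite directions in different populations was not computed. The difference between the populations was not tested, since the genes were chosen with the hypoxia change in view.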

How the results depend on the processing

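With the replicate block the counts of list genes and chosen genes passing each comparison did not change: 9 of 12 in air, 1 in hypoxia and 3 between air and hypoxia in pSCR for the list, 0 for its interaction, and 0 of 7 for pSHR against pWOL in each condition. The hypoxia count of list genes was 3 without the dimmest 25% of probe sets and with trended robust moderation, and 0 without the total RNA arrays (chosen after seeing the data) or with only the arrays compared. With only the arrays compared, the count for hypoxia against air in pSCR was 0 and the air count was 6, with AT1G44970, AT1G61590 and AT2G48130 no longer passing (limma adjusted p = 0.0650, 0.0834 and 0.0556). AT1G61590 also did not pass after quantile normalization (limma adjusted p = 0.0547), and neither AT1G61590 nor AT1G44970 passed without the total RNA arrays (0.0625 and 0.0586). Leaving out 1 array in turn gave 1 to 9, 0 to 3 and 0 to 4 for these 3 counts, and 0 for pSHR against pWOL.

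Several signs turned. Centring on array medians gave -0.0025 for GSO1 in pSHR against pWOL in hypoxia and -0.042 for AT1G61590 between air and hypoxia in pSCR, and AT2G19050 in pSCR against the other lines in air gave 0.088 with centring and 0.012 with quantile normalization. Leaving out 1 array, pSHR against pWOL ran from -0.24 to 0.30 for GSO1 in hypoxia, from -0.17 to 1.68 in air and -1.25 to 0.05 in hypoxia for AT2G39430, from -0.74 to 1.03 for AT5G66390 in air, and from -0.16 to 0.95 for AT2G35380 in hypoxia. Hypoxia against air in pSCR ran from -1.34 to 0.39 for AT4G13580, -1.46 to 0.045 for AT1G44970, -0.52 to 0.56 for AT1G61590 and -0.56 to 0.23 for AT4G34600. The pSCR difference from the mean of the other lines ran from -0.30 to 0.57 for FACT in hypoxia, -0.12 to 0.59 for JKD in hypoxia and -0.050 to 0.049 for AT2G19050 in air. Hypoxia against air in the other populations ran from -1.84 to 0.01 for AT2G39430 in pSHR, -0.41 to 1.27 in p35S and -0.34 to 0.39 in total RNA, from -0.91 to 0.30 in total RNA, -0.84 to 0.52 in p35S and -0.28 to 0.27 in pWOL for AT3G22620, from -0.36 to 0.66 in total RNA and -0.11 to 0.70 in p35S for AT5G66390, from -0.35 to 0.34 for GSO1 in pSHR, and from -0.22 to 0.0035 for AT1G68850 in total RNA. Over all probe sets, leaving out 1 array moved the counts from 1681 to between 245 and 2023 for pSCR in air, from 120 to between 0 and 341 in hypoxia, from 1356 to between 475 and 1503 for hypoxia in pSCR, and from 449 to between 1 and 921 for pSHR against pWOL in air. With only the arrays compared, the last 3 were 1, 228 and 1, and the count for pSHR against pWOL in hypoxia went from 2 to 0. Without the dimmest 25%, with trended robust moderation and without total RNA, the hypoxia count in pSCR was 199, 188 and 29, and without total RNA that for pSHR against pWOL in air was 288. The cause was not tested. Taking the probe set of lowest mean per gene was not run, since each gene has 1 probe set.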
